A study of Mus musculus with 44 samples.

Results

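Of the 55487 genes in the deposited count tables, 10 were followed here because they lie next to the dopamine receptor genes Drd1 or Drd2 on the chromosome. They were matched by symbol from a list of genes within about 400 kb of either receptor gene, 6 beside Drd1 (Gm18974, E130119H09Rik, Gm34557, Gm48550, Sfxn1 and Hrh2) and 4 beside Drd2 (Gm4894, Ankk1, Ttc12 and Ncam1). The members were chosen by their position and with the measured difference between D2 and D1 counts of these libraries known. That difference is therefore given below as a description, without p-values. All 10 had a row in both tables, 10 of 10 passed the filter on low counts in sorted nuclei, and 5 of 10 passed it in bulk tissue.

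The study measured RNA in the nucleus accumbens of mice given a virus that expresses RXRa (retinoid X receptor alpha), which regulates transcription on binding its ligand, or a fluorescent protein alone. In the bulk experiment, tissue of males carried herpes simplex vectors, HSV-GFP in 4 libraries and HSV-RXRa-GFP in 4. In the sorted experiment, nuclei sorted as D1 or D2 came from females and males that carried AAV9-CAG-DIO-EGFP or AAV9-CAG-DIO-EGFP-P2A-RXRa, below called EGFP and RXRa libraries. These comprise 10 D1 EGFP libraries (5 female, 5 male), 8 D1 RXRa libraries (4 and 4), 9 D2 EGFP libraries (4 and 5) and 8 D2 RXRa libraries (4 and 4).

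A DIO insert is expressed only where Cre recombinase is present, so every sorted group depends on a Cre driver, presumably different for D1 and D2. Some Cre driver lines are made with large genomic fragments that can carry neighbouring genes along with the driver gene. Whether this holds for the lines used here was not tested. The labels do not name the driver lines, ages or the number of animals behind a sample, and the DNA copy number of these loci was not measured here. Where samples were not separate animals, the p-values below measure only the spread between samples.

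Drd1 and Drd2 encode the dopamine receptors that define the main classes of striatal projection neuron: Drd1 couples to Gs and raises cAMP in direct-pathway neurons, and Drd2 couples to Gi and lowers it in indirect-pathway neurons. Drd1 lies in a stretch of chromosome 13 with non-coding transcripts, the mitochondrial serine transporter gene Sfxn1 and the histamine H2 receptor gene Hrh2. Drd2 lies in a conserved cluster on chromosome 9 with the kinase gene Ankk1, the cilia gene Ttc12 and the cell adhesion gene Ncam1. RNA of nuclei holds unspliced transcripts, so reads from introns and from RNA that is not polyadenylated can appear in sorted libraries and be missing from poly(A)-selected bulk libraries.

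Total counts over genes ran from 21567565 to 29167142 in bulk (median 27375134) and from 12211655 to 27757463 in assigned sorted libraries (median 20884654). The vector's codon-altered RXRa ranged from 22.1 to 38.7 CPM (counts scaled to library size) in bulk RXRa libraries and was at 0 in the 4 bulk GFP libraries. It ranged from 45.4 to 557 CPM in sorted RXRa libraries and was at most 0.819 CPM in EGFP libraries. The D2 list of markers (Drd2, Adora2a, Penk, Gpr6 and Sp9) had a median summed level of 1300 CPM in D2 EGFP libraries and 140 CPM in D1 EGFP libraries, and the D1 list (Drd1, Tac1, Pdyn, Isl1 and Chrm4) one of 57.9 and 125 CPM. Drd2 alone had a median of 652 CPM in D2 EGFP libraries, and Drd1 one of 45.7 CPM in D1 EGFP libraries. Longer identity lists also held genes that differed little. The log2 difference of D2 minus D1 with EGFP was 0.04 for Eya1, -0.12 for Ebf1 and -0.13 for Reln (D1 list). It was 0.24 for Grik3 (D2 list), and Gpr52 of that list had no value. Lists for astrocytes, oligodendrocytes, microglia and endothelium had every gene above 0 in every sorted library. Their summed medians were close in D1 and D2 EGFP libraries, 132 and 135 CPM for the 4 astrocyte genes and 121 and 128 CPM for the 4 oligodendrocyte genes. Genes without a count in bulk also had reads in sorted libraries (below), so levels above 0 do not by themselves show these cell types. The summed levels were not set against that background.

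On the Drd1 side, 5 of the 6 neighbours were lower in D2 than in D1 nuclei, in both sexes and with both vectors, by 2.70-fold (Gm34557) to 3.33-fold (E130119H09Rik) in EGFP libraries, and Hrh2 lay close to equality. In EGFP libraries these 5 members were past 2-fold lower in D2, against a background of 0.0729% of the 43902 genes tested, and in RXRa libraries the same 5 were, against 0.082%. The list was chosen with this contrast known, so nothing is read from those shares. Both shares count the members themselves. Over all genes, members included, 0.121% with EGFP and 8.38% with RXRa passed edgeR's test of this contrast. The members' own results in that test are not given. The annotation (GENCODE M21, build GRCm38) gives the 5 as the processed pseudogene Gm18974 (chr13:53888627-53890855, plus strand), the processed transcript E130119H09Rik (chr13:53912263-53915748, minus strand), the lincRNAs Gm34557 (chr13:53921313-53934788, minus strand) and Gm48550 (chr13:53968944-53976666, plus strand), and the protein-coding gene Sfxn1 (chr13:54071869-54108342, plus strand).

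Of the members past 2-fold lower in D2 nuclei, 3 of the genes beside Drd1 have starts that RefSeq lists (GRCm38.p6). The 250 bases before each start are shown, on the gene's own strand. They are E130119H09Rik (chr13:53915749-53915998, minus strand), Gm34557 (chr13:53935284-53935533, minus strand, upstream of the start of its GENCODE model) and Sfxn1 (chr13:54071595-54071844, plus strand). Capitals mark a TATAAA box or a GGGCGG box on either strand; the other motif searched, AGGTCA or its complement TGACCT, the hexamer that RXR and its partner receptors bind, had no match in the windows of the 6 members that RefSeq lists.
E130119H09Rik: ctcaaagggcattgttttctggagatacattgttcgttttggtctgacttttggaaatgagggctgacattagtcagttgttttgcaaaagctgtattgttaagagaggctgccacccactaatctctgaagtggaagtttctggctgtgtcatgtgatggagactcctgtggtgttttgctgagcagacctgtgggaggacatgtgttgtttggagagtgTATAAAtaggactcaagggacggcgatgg
Gm34557: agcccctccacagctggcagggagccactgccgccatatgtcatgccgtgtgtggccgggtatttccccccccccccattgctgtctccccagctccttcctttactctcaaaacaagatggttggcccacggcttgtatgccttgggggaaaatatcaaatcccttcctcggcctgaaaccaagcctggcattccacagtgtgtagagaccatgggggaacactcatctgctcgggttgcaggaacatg
Sfxn1: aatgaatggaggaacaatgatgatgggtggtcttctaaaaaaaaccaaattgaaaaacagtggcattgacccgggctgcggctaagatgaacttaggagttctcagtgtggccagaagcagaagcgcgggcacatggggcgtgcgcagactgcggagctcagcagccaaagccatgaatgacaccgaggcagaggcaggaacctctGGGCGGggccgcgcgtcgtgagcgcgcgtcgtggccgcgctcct

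Among the 32851 RefSeq windows of this length, 14% held AGGTCA, 12.4% held TATAAA and 32.7% held GGGCGG, each searched on its own and on either strand. E130119H09Rik had a TATAAA close to its start and no GGGCGG. Sfxn1 had a GGGCGG, and Gm34557 had none of the 3 motifs. A match describes these letters only. Windows for Gm18974, Gm48550, Ankk1 and Ncam1 are not shown.

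Sfxn1, which carries serine into mitochondria for one-carbon metabolism, ranged from 71.5 to 93.2 CPM in D1 EGFP libraries (median 76.3, n = 10) and from 22.2 to 25.4 CPM in D2 EGFP libraries (median 24.1, n = 9). In RXRa libraries it ranged from 76.9 to 98.0 CPM in D1 (median 84.6, n = 8) and from 23.7 to 32.0 CPM in D2 (median 27.7, n = 8). Every D1 library was above every D2 library, and the log2 difference of D2 minus D1 was -1.71 (SE 0.06) with EGFP and -1.61 (SE 0.07) with RXRa.

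Gm34557, a lincRNA without a known role, ranged from 27.8 to 32.7 CPM in D1 EGFP libraries (median 30.4) and from 7.95 to 12.6 CPM in D2 EGFP libraries (median 11.98). Its log2 difference was -1.43 (SE 0.07) with EGFP and -1.48 (SE 0.08) with RXRa. Gm48550, the lincRNA nearest to Drd1 on the downstream side, ranged from 13.5 to 17.0 CPM in D1 EGFP libraries (median 14.9) and from 4.61 to 6.67 CPM in D2 EGFP libraries (median 4.94). The groups of these lincRNAs did not overlap with either vector, and the log2 difference of Gm48550 was -1.55 (SE 0.08) with EGFP and -1.503 (SE 0.09) with RXRa.

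E130119H09Rik ranged from 7.82 to 11.01 CPM in D1 EGFP libraries (median 9.15) and from 2.08 to 3.75 CPM in D2 EGFP libraries (median 2.88), a log2 difference of -1.74 (SE 0.08), and of -1.61 (SE 0.08) with RXRa. The pseudogene Gm18974 was the lowest of the 5 in CPM, from 4.09 to 5.21 in D1 EGFP libraries (median 4.45) and from 0.949 to 2.15 in D2 EGFP libraries (median 1.35). Its log2 difference was -1.54 (SE 0.11) with EGFP and -1.72 (SE 0.12) with RXRa. D1 and D2 libraries of both genes lay apart with either vector. Reads of a processed pseudogene can be shared with its parent gene, so the level of Gm18974 is uncertain.

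Hrh2 (chr13:54192129-54236180, plus strand), which encodes a Gs-coupled histamine receptor, ranged from 32.3 to 38.2 CPM in D1 EGFP libraries (median 34.5) and from 25.5 to 34.8 CPM in D2 EGFP libraries (median 29.6). The groups overlapped with both vectors, and the log2 difference was -0.21 (SE 0.06) with EGFP and -0.11 (SE 0.06) with RXRa. The antisense gene Gm16578 overlaps Hrh2, and the use of strand in counting is not given in the sources used here, so their reads cannot be told apart.

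**Figure D1:**
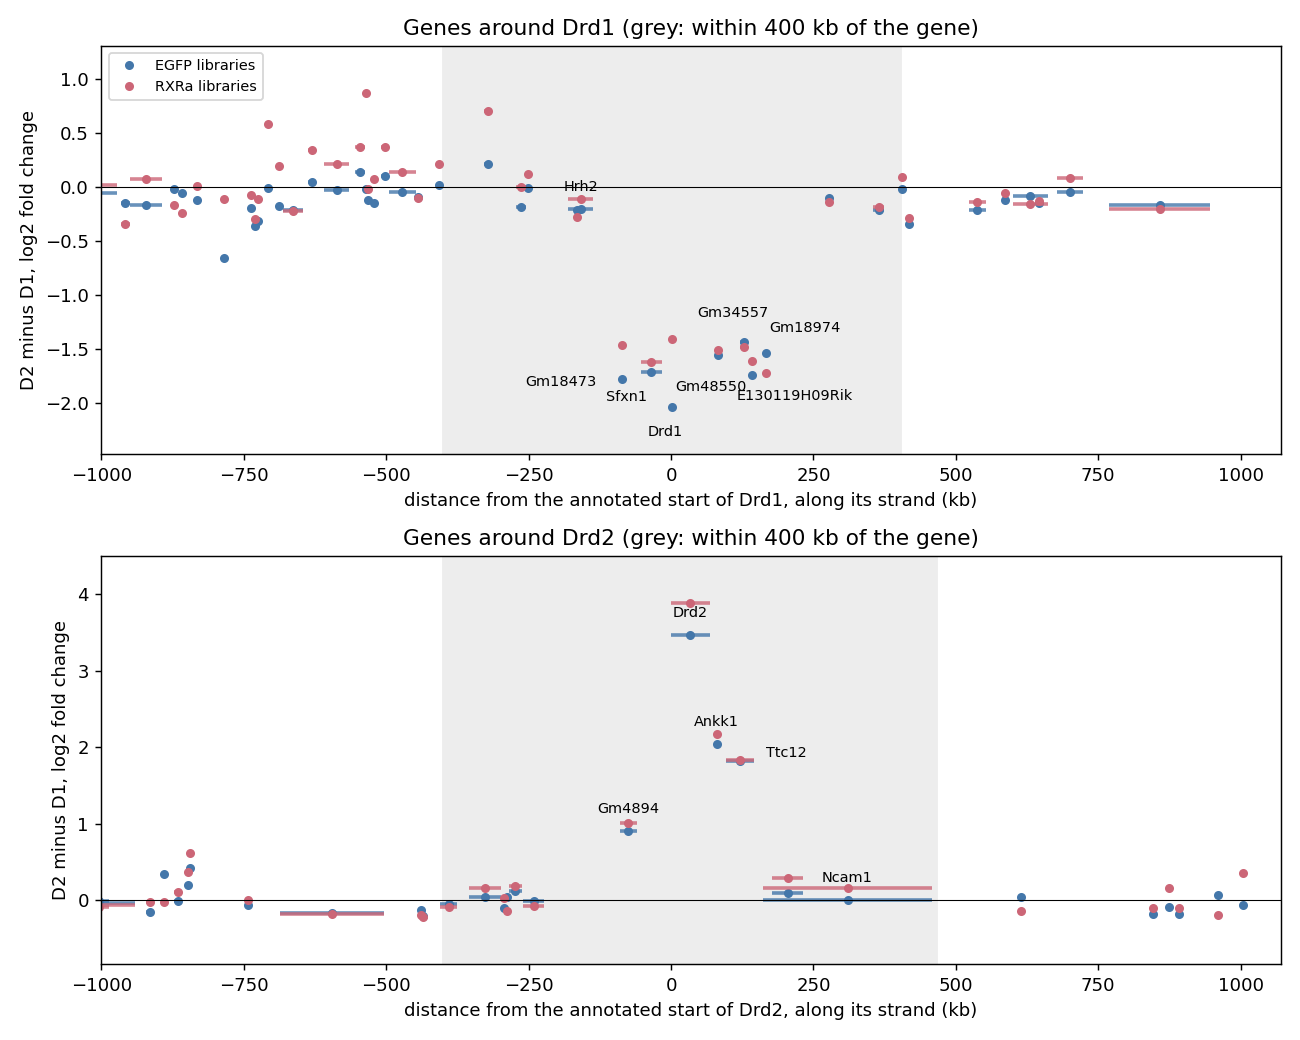
Log2 fold change of D2 minus D1 nuclei (y axis) of every tested gene within about 1 Mb of Drd1 (top) and Drd2 (bottom), against its distance in kb from the receptor gene's annotated start along the gene's strand (x axis). Lines span gene bodies, points mark their middles, blue is EGFP libraries (10 D1, 9 D2), red is RXRa libraries (8 and 8); beside Drd1 a block of genes lies between -1.40 and -2.03 and beside Drd2 4 genes lie between 0.91 and 3.88, while no other tested gene shown is past 2-fold, the farthest from 0 being Higd2a at 0.87 with RXRa, 534.5 kb from Drd1.

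On the Drd2 side, Ankk1 was 4.12-fold, Ttc12 3.53-fold and Gm4894 1.87-fold higher in D2 than in D1 nuclei in EGFP libraries, and Ncam1 was not separated. In EGFP libraries 2 of the 4 were past 2-fold higher in D2, against a background of 0.0957% of genes tested, and in RXRa libraries 3 of the 4 were, against 0.26%. As above, nothing is read from these shares. The 250 bases before the RefSeq start of Ttc12 (chr9:49486226-49486475, minus strand, GRCm38.p6) are shown as the only listed window of the members past 2-fold with both vectors on this side, with a GGGCGG box in capitals on the opposite strand. The windows of Gm4894 and of each listed start of Hrh2 held a GGGCGG as well.
Ttc12: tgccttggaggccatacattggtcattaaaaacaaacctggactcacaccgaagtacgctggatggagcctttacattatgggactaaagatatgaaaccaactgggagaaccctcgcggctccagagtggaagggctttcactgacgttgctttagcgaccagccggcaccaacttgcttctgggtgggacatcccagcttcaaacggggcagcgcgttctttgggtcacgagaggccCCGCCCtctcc

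Ankk1 (chr9:49415194-49427021, minus strand), a kinase with ankyrin repeats encoded next to Drd2, ranged from 6.65 to 9.86 CPM in D1 EGFP libraries (median 8.65) and from 27.7 to 42.3 CPM in D2 EGFP libraries (median 36.4). With RXRa the ranges were 8.02 to 9.89 CPM in D1 (median 9.05) and 32.5 to 52.1 CPM in D2 (median 39.1). The D2 libraries were all above the D1 libraries, and the log2 difference was 2.04 (SE 0.07) with EGFP and 2.18 (SE 0.08) with RXRa.

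Ttc12 (chr9:49436963-49486225, minus strand), needed to assemble the dynein arms of motile cilia, ranged from 31.9 to 38.1 CPM in D1 EGFP libraries (median 35.2) and from 105.5 to 136.3 CPM in D2 EGFP libraries (median 130.3). Its log2 difference was 1.82 (SE 0.06) with EGFP and 1.83 (SE 0.07) with RXRa. Gm4894 (chr9:49250531-49280594, plus strand), a predicted protein-coding gene on the other side of Drd2, ranged from 16.2 to 20.5 CPM in D1 EGFP libraries (median 19.1) and from 31.5 to 38.3 CPM in D2 EGFP libraries (median 35.02). Both genes had no overlap between D1 and D2 libraries, and the log2 difference of Gm4894 was 0.91 (SE 0.06) with EGFP and 1.00 (SE 0.06) with RXRa, just short of 2-fold with EGFP and just past it with RXRa.

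Ncam1 (chr9:49502136-49798925, minus strand), a cell adhesion molecule of axon growth and synapses, ranged from 258.5 to 392 CPM in D1 EGFP libraries (median 312.5) and from 290.8 to 367.4 CPM in D2 EGFP libraries (median 314.9). The groups overlapped, and the log2 difference was 0.01 (SE 0.11) with EGFP and 0.16 (SE 0.11) with RXRa. The antisense gene Gm11149 overlaps Ncam1, and their reads likewise cannot be told apart.

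**Figure D2:**
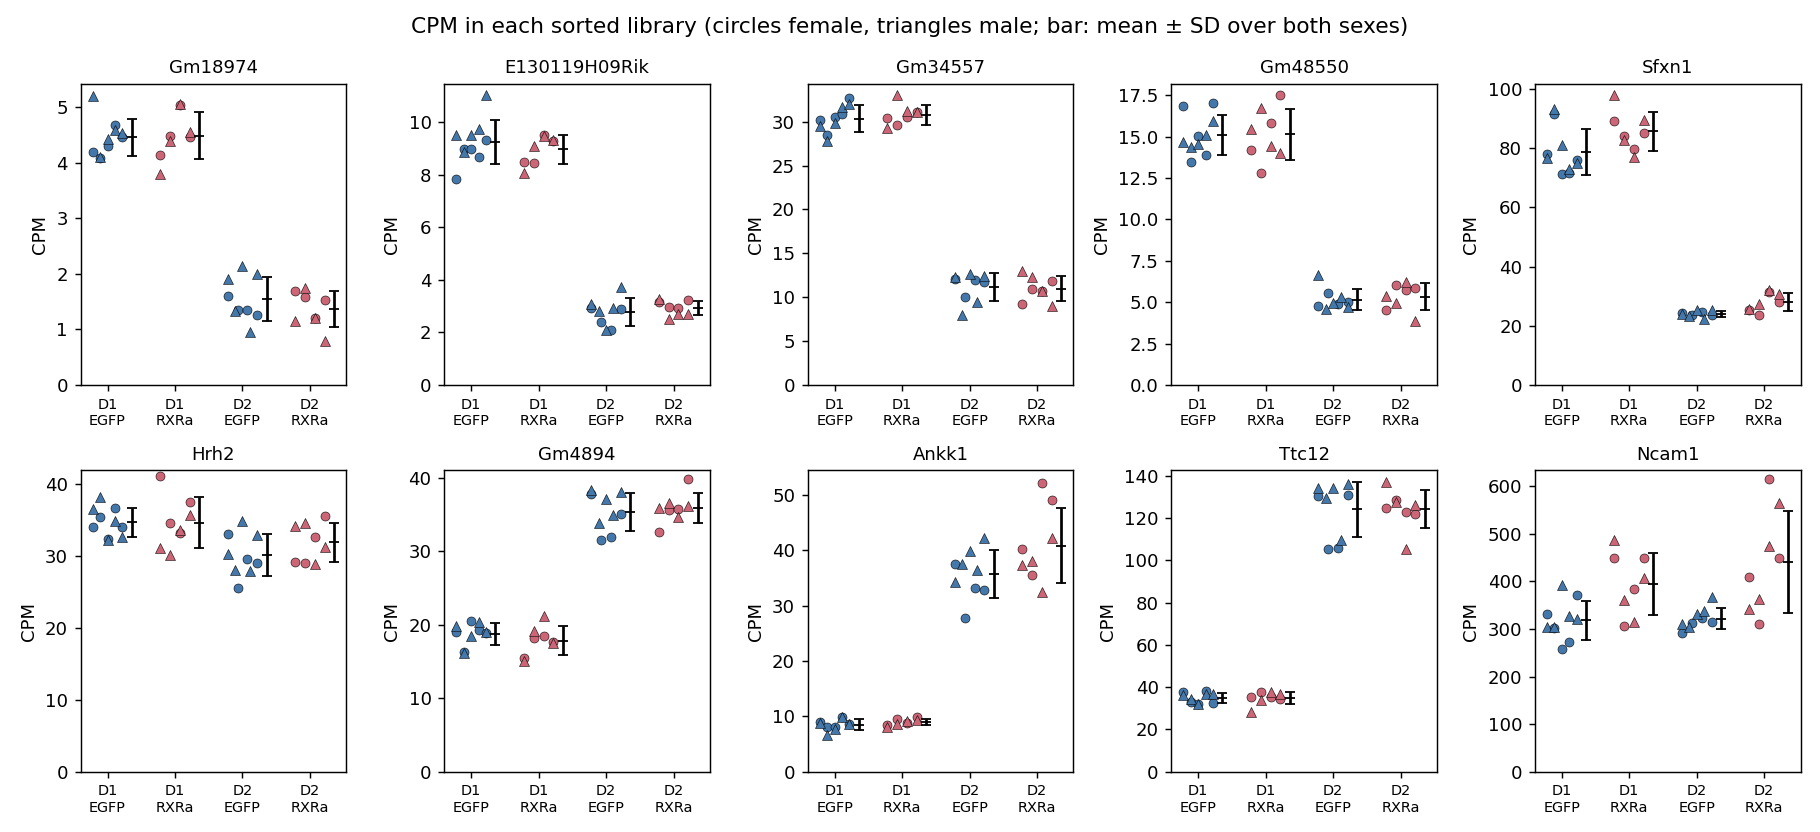
CPM (y axis, linear, from 0) of each of the 10 genes in every assigned sorted library, by population and vector (x axis), with circles for females, triangles for males, blue for EGFP, red for RXRa and bars for the mean ± SD over both sexes. In 8 of the 10 panels no D2 library overlaps a D1 library of the same vector, and Hrh2 and Ncam1 are the panels with overlap. The genes were chosen with this difference known, and the share of all genes without overlap was not counted. Nothing is read from the 8 panels.

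The genes that differed lay in unbroken runs around each receptor gene. On chromosome 13, 7 of 7 tested genes from Gm18974 to the pseudogene Gm18473 (chr13:53888627-54141802, 253.2 kb), Drd1 among them, were past 2-fold lower in D2 with both vectors. Gm18473, which is not among the 10, had a log2 difference of -1.77 with EGFP and -1.46 with RXRa, at medians of 0.726 and 0.187 CPM in D1 and D2 EGFP libraries, and its EGFP groups overlapped. The next tested gene outward on one side was the lincRNA Gm48548, 109.7 kb away, at -0.10 with EGFP and -0.14 with RXRa (log2), and on the other side Hrh2, 50.3 kb away.

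On chromosome 9, 4 of 4 tested genes from Gm4894 to Ttc12 (chr9:49250531-49486225, 235.7 kb), Drd2 among them, were past 2-fold higher in D2 with 1 vector or both. The flanking tested genes were Tmprss5, 132.9 kb away, with a log2 difference of 0.00 with EGFP and -0.08 with RXRa, and Ncam1, 15.9 kb away. The receptor genes themselves had larger log2 differences with EGFP than any neighbour past 2-fold on their side, Drd1 at -2.03 (SE 0.24) and Drd2 at 3.47 (SE 0.16). With RXRa, Drd2 was at 3.88 (SE 0.18), while Drd1 at -1.40 (SE 0.25) was nearer to 0 than the 5 members beside it.

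A gene was counted within 400 kb where its whole annotated body lay there, while the distances printed below run to its nearest end. Within 400 kb of Drd1, 6 of the 13 other genes tested were past 2-fold lower with each vector, the 5 members and Gm18473, and none was higher. Within 400 kb of Drd2, 2 of the 10 tested were past 2-fold higher with EGFP and 3 with RXRa. Between 400 kb and 1 Mb, 0 of 31 genes around Drd1 and 0 of 18 around Drd2 were past 2-fold in either direction with either vector. At the limit of the window, Gm34278 at 350.8 kb from Drd1 had log2 differences of -0.21 and -0.18 with EGFP and RXRa, and 4930555G21Rik at 401.1 kb had -0.02 and 0.09. Usp28 at 298.1 kb from Drd2 had 0.04 and 0.16. Htr3b, whose body crosses the limit and was counted outside it, with its near end at 375.6 kb, had -0.05 and -0.08.

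For comparison, windows of 400 kb were counted in the same way around Tac1, Pdyn and Isl1, which mark D1 neurons, and Adora2a, Penk and Gpr6, which mark D2 neurons. None of the 9, 16, 5, 15, 13 and 12 genes tested there, in that order, was past 2-fold with either vector. With EGFP, the log2 differences of the genes at the centre of these windows were -0.72 for Tac1, -1.77 for Pdyn, -0.51 for Isl1, 1.81 for Adora2a, 2.73 for Penk and 2.37 for Gpr6, so Tac1 and Isl1 were themselves under 2-fold. Between 400 kb and 1 Mb of these marker genes, 1 of the 32 genes tested around Adora2a was past 2-fold, higher with RXRa at 1.09 (log2). None was past 2-fold there around the other marker genes. No window was counted around other markers. Over all 43902 genes tested, 74 were past 2-fold in EGFP libraries and 10 of these were Drd1, Drd2 or genes within 400 kb of them, out of 25 tested there. In RXRa libraries 150 were, 11 of them in those windows.

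Read density was compared with that of genes without bulk expression. In each sorted library, counts were set against the length of the gene body (CPM per kb) for 1576 protein-coding genes on autosomes, each 5 kb or longer and without a count in any bulk library. Their median is here called the silent-gene density. It had a median of 0.511 CPM per kb in D1 EGFP libraries and 0.531 in D2 EGFP libraries. Counts of these genes followed gene-body length (Spearman's rho 0.797 across the 1576 genes, which are not independent replicates) more than exon length (rho 0.066).

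As a ratio to that density, per kb of gene body, the 5 neighbours of Drd1 that differed had medians between 3.86 (Gm48550) and 5.28 (E130119H09Rik) over the 18 D1 libraries. Over the 17 D2 libraries their medians lay between 1.26 (Gm48550) and 1.70 (Gm34557). The D1 libraries were all at or above 3.35 and the D2 libraries all at or below 2.24 for these 5. For Gm18974 the ratio in D2 libraries ran from 0.773 to 1.87, on both sides of the silent-gene density. The spread of single silent genes around their median was not computed, so no ratio is placed inside or outside it. Gm18974 (2.23 kb) and E130119H09Rik (3.49 kb) are also shorter than the 5 kb minimum set for the silent genes.

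On the Drd2 side the ratio for Ttc12 had a median of 1.43 in D1 libraries and 5.16 in D2 libraries, for Ankk1 1.46 and 6.13, and for Gm4894 1.25 and 2.34. Hrh2 had medians of 1.55 in D1 and 1.37 in D2, and Ncam1 of 2.19 and 2.11. Against these, the receptor genes stood higher in their own population, Drd1 with a median ratio of 23.3 in D1 libraries and 6.33 in D2, and Drd2 with 21.7 in D2 libraries and 1.85 in D1.

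**Figure D3:**
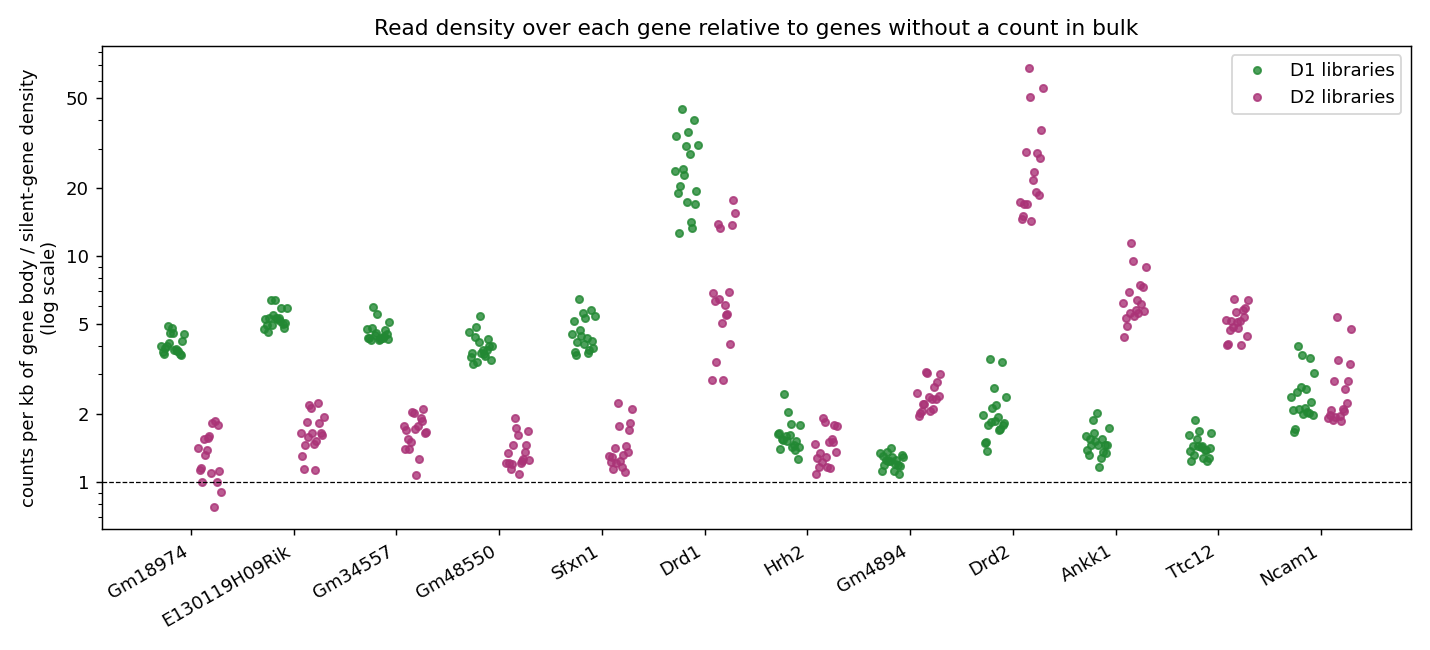
Counts per kb of gene body divided by the silent-gene density of the same library (y axis, log scale; dashed line at 1) for the 10 genes, Drd1 and Drd2 (x axis), with a point per library, green for the 18 D1 and purple for the 17 D2 libraries. The neighbours that differed have medians of 2.34 to 6.13 in the population where they are higher and 1.25 to 1.70 in the other, while Drd1 and Drd2 reach medians above 20.

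The difference between populations was also expressed as an amount of CPM per kb of gene body, a measure added after the values were seen. With EGFP, D1 exceeded D2 by 1.31 CPM per kb for Gm18974, 1.85 for E130119H09Rik, 1.42 for Gm34557, 1.29 for Gm48550 and 1.5 for Sfxn1, genes whose bodies run from 2.23 to 36.5 kb. The amounts with RXRa were 1.40, 1.73, 1.47, 1.27 and 1.58 in that order. The pseudogene Gm18473 of the same run was lower, at 0.623 with EGFP and 0.577 with RXRa. These amounts were not tested against each other. Drd1 was above all of these amounts, at 8.28 CPM per kb with EGFP, and Hrh2, at 0.104, was below them. Exons make up 3.63 of the 4.52 kb of Drd1. In the 5 members they run from 0.375 of 13.5 kb (Gm34557) to 1.03 of 2.23 kb (Gm18974), so amounts per kb of body are not like for like. On the other side, D2 exceeded D1 by 0.552 CPM per kb for Gm4894, 2.30 for Ankk1 and 1.81 for Ttc12 with EGFP, against 9.18 for Drd2 and 0.009 for Ncam1.

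Bulk levels are given beside the sorted ones and were not tested against them, since the tables were normalised apart. In bulk, Sfxn1 ranged from 55.7 to 65.6 CPM (median 58.0, n = 8), Hrh2 from 8.27 to 13.3, Ankk1 from 3.09 to 8.13, Ttc12 from 4.91 to 7.53 and Ncam1 from 243.6 to 310.3. Drd1 ranged from 195.4 to 277.9 CPM and Drd2 from 167.1 to 232.7 CPM. The other 5 members had 0 to 9 counts per bulk library. Gm18974 was the highest of them, with 3 to 9 counts (0.121 to 0.337 CPM), and Gm4894 the lowest, with 0 or 1 count, below the limit of 3 counts (0.103 to 0.139 CPM) that a count of 0 allows. So 4 neighbours of Drd1 and Gm4894 were read in sorted nuclei and were near or under the counting floor in poly(A)-selected tissue. This is not particular to them, since the 1576 genes without a bulk count also had reads in sorted libraries. The share of all genes with this pattern was not counted.

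The neighbours also resembled each other across the 35 assigned sorted libraries, which share a preparation and a normalisation. Pearson's r of log2(CPM + 1) was taken against 32506 genes with a mean of at least 1 CPM, and populations differ between libraries, so r mostly restates the D1 and D2 difference with which the members were chosen and supports nothing further. The 3 genes most like each of the 5 members beside Drd1 were in every case others of these 5 (r from 0.952 to 0.976). Those most like Gm4894, Ankk1 and Ttc12 were the other two and Drd2 (r from 0.944 to 0.987). For Hrh2 they were Notch3 (r 0.913), Nfatc2 and Bicra.

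Once each group's mean was removed, the neighbours were not alike in how they varied with their receptor gene. Counting error enters these r values where counts are low. In D2 libraries Gm18974 had 11 to 36 counts and E130119H09Rik 29 to 74. Its part in the r values was not estimated. Among the 5 members beside Drd1 that differed, r of the deviations over the 35 libraries was 0.61 for Gm18974 with Gm34557 and 0.42 for Gm34557 with Gm48550. It was 0.20 for E130119H09Rik with Gm34557, 0.07 to 0.09 for the remaining pairs without Sfxn1, and -0.29 to -0.10 for Sfxn1 with the other 4. Beside Drd2, r was 0.56 for Gm4894 with Ankk1, 0.53 for Gm4894 with Ttc12 and 0.47 for Ankk1 with Ttc12. Between these genes and the 5 beside Drd1, r ran from -0.53 (Sfxn1 with Gm4894) to 0.49 (Gm34557 with Gm4894). The r with Drd1 was -0.56 for Gm34557, -0.45 for E130119H09Rik, -0.28 for Gm48550, -0.26 for Gm18974 and -0.23 for Hrh2, and 0.57 for Sfxn1. The r with Drd2 was -0.25 for Ttc12, -0.14 for Gm4894, 0.39 for Ankk1 and 0.82 for Ncam1. Values of like size occurred across chromosomes. With Drd1, r was -0.71 for Gm4894, -0.59 for Ttc12, -0.40 for Ankk1 and 0.42 for Ncam1. With Drd2, r was 0.65 for Sfxn1, 0.20 for Hrh2 and from -0.36 (Gm18974) to -0.13 (E130119H09Rik) for the other members beside Drd1. Sfxn1 and Ncam1 also varied inversely with the silent-gene density (r of -0.71 and -0.73), as did Drd2 (-0.72), Hrh2 (-0.50), Drd1 (-0.40) and Ankk1 (-0.31), while Gm18974, E130119H09Rik, Gm34557, Gm48550, Gm4894 and Ttc12 had r from 0.07 to 0.28.

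Whether the difference between D2 and D1 changed with sex or vector was tested with the interaction terms of edgeR's quasi-likelihood fit. For RXRa minus EGFP, 0 of 10 members passed an adjusted p of 0.05, against 0% of genes, with log2 terms from -0.18 to 0.15 and adjusted p from 0.673 to 0.987. At an unadjusted p under 0.05 there were 0 members and 3607 of 43902 genes, and DESeq2 called 0 members. The widest 95% intervals of the members reached from -0.50 to 0.46 in log2, so changes within those bounds were not resolved.

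For male minus female, 0 of 10 passed, against 0.00456% of genes (2 of 43902), with log2 terms from -0.06 to 0.12 and adjusted p from 0.951 to 1.0. There were 0 members and 1940 genes at an unadjusted p under 0.05, and DESeq2 again called 0 members. Sfxn1 had a log2 difference of -1.69 in females and -1.72 in males with EGFP, and Ankk1 of 1.91 and 2.18.

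The comparison of RXRa with EGFP asks what the receptor's overexpression does in each population. In D1 nuclei 0 of the 10 passed edgeR's quasi-likelihood test with Benjamini-Hochberg adjustment, against 0% of genes (0 of 43902). At an unadjusted p under 0.05 there were 3522 genes and 2 members, Sfxn1 with a log2 change of 0.12 (SE 0.06, adjusted p = 0.620) and Ncam1 with 0.31 (SE 0.11, adjusted p = 0.582), and DESeq2 called 0 genes. The other 8 had log2 changes from -0.07 to 0.07.

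In D2 nuclei 3 of the 10 were called, all higher with RXRa, against 22.1% of genes tested (14.9% higher, 7.14% lower), so the share of members called was near that of all genes. Ncam1 ranged from 290.8 to 367.4 CPM with EGFP (median 314.9) and from 310 to 615.2 CPM with RXRa (median 429.1), a log2 change of 0.46 (SE 0.11, edgeR adjusted p = 0.0114). The groups overlapped, and the RXRa libraries spread more widely, 441 ± 108 CPM (SD, n = 8) against 321 ± 22.2 (SD, n = 9).

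Sfxn1 rose from a median of 24.1 CPM with EGFP (22.2 to 25.4) to 27.7 with RXRa (23.7 to 32.0), a log2 change of 0.22 (SE 0.07, edgeR adjusted p = 0.0207). Ankk1 rose from a median of 36.4 CPM (27.7 to 42.3) to 39.1 (32.5 to 52.1), a log2 change of 0.20 (SE 0.07, edgeR adjusted p = 0.0454). Its mean was 32.8 ± 3.97 CPM (SD, n = 4) with EGFP and 44.2 ± 7.72 (SD, n = 4) with RXRa in females, and 38.1 ± 3.10 (SD, n = 5) and 37.5 ± 3.93 (SD, n = 4) in males, and whether the change differs between the sexes was not tested. The call of Ankk1 was lost in 18 of 35 fits that left out 1 library, and without the filter on low counts. For Sfxn1 and for Ankk1 the EGFP and RXRa groups overlapped. The other 7 had log2 changes from -0.17 to 0.09, edgeR adjusted p from 0.304 to 0.937, and the median over the 10 was 0.07 against -0.04 over all genes.

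Drd1 and Drd2 were also higher with RXRa in D2 nuclei, by 0.89 (SE 0.25, edgeR adjusted p = 0.0173) and 0.75 (SE 0.16, edgeR adjusted p = 0.0111) in log2. Beside these changes, the silent-gene density had a median of 0.531 CPM per kb in D2 EGFP and 0.458 in D2 RXRa libraries, the D2 marker list medians of 1300 and 1860 CPM, and the D1 list medians of 57.9 and 89.6 CPM. With the silent-gene density as a covariate 0 of 10 members and 0 of 43902 genes were called. Without the D2 female RXRa replicate 4, 0 members were called, and without the D2 male RXRa replicate 3 or 5, 1 was (Ncam1). With library totals alone as the scale, 1 was called (Ncam1), and the median of all genes moved from -0.04 to -0.20.

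**Figure D4:**
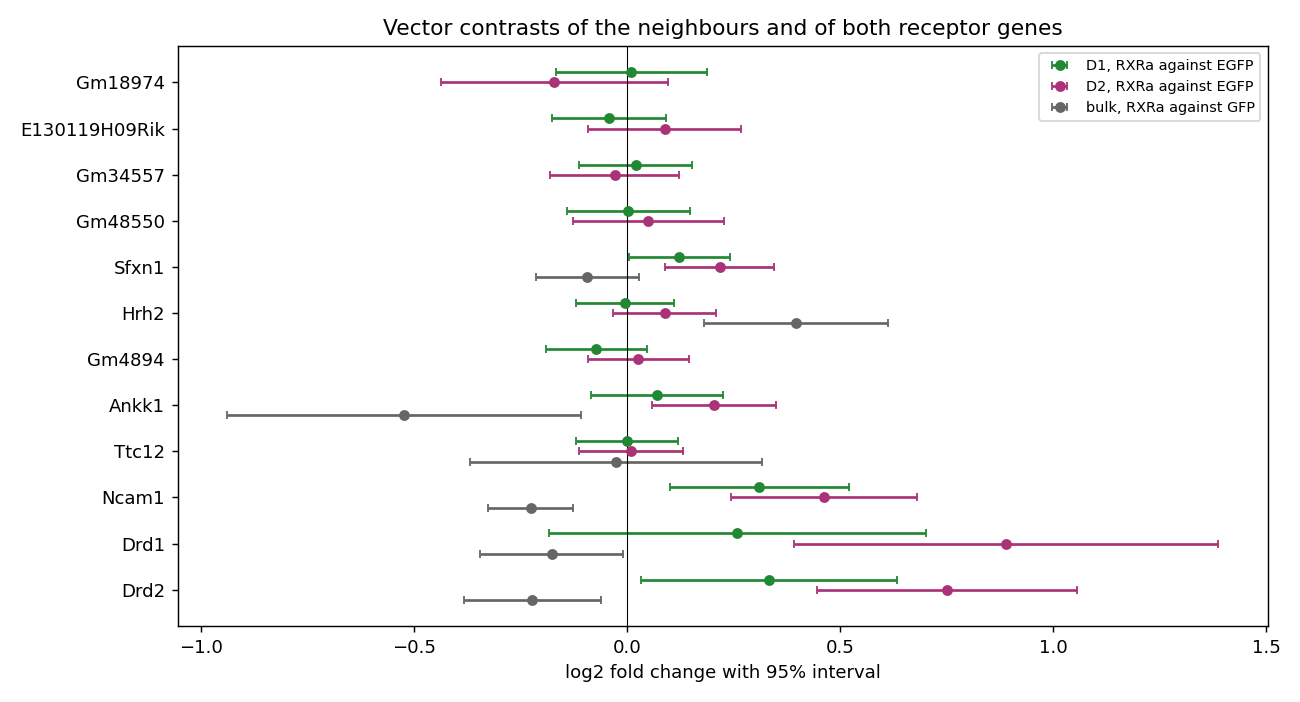
Log2 fold change with 95% interval (x axis) of RXRa against the control vector for the 10 genes and both receptor genes (y axis) in D1 nuclei (green), D2 nuclei (purple) and bulk tissue (grey, for the genes that passed the filter there). Ncam1, Sfxn1 and Ankk1 lie above 0 in D2 nuclei at 0.46, 0.22 and 0.20, and Ncam1 lies below 0 in bulk at -0.23.

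In bulk tissue 1 of the 5 members that passed the filter was called, against 3.7% of the 18579 genes tested (3.01% higher, 0.689% lower). Ncam1 had 310.3, 293.4, 281.9 and 297.3 CPM in the 4 GFP libraries and 248.5, 263.7, 243.6 and 255.1 CPM in the 4 RXRa libraries. The groups did not overlap, and Ncam1 fell by 0.23 on the log2 scale (SE 0.05, edgeR adjusted p = 0.0445), the direction opposite to that in D2 nuclei; the difference between the tables was not tested. In bulk, fewer cells of a type and less RNA per cell cannot be told apart. Leaving out any 1 of the 8 libraries ended the call, with edgeR adjusted p from 0.0535 to 0.140.

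Hrh2 had 8.27, 9.44, 10.02 and 8.36 CPM with GFP and 12.8, 13.3, 10.8 and 10.6 CPM with RXRa, without overlap, a log2 change of 0.40 (SE 0.11, edgeR adjusted p = 0.0827) that DESeq2 called. Ankk1 had 4.84, 4.63, 4.88 and 8.13 CPM with GFP and 3.78, 4.74, 3.09 and 3.97 CPM with RXRa, a log2 change of -0.52 (SE 0.21, edgeR adjusted p = 0.195). The 4th GFP library was the highest for Ankk1, and the groups overlapped. Sfxn1 had a log2 change of -0.09 (edgeR adjusted p = 0.416) and Ttc12 of -0.03 (edgeR adjusted p = 0.953), and neither passed the test.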

How the data were processed

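RNA was measured in 8 bulk and 36 sorted libraries. Per the submitters' processing notes, reads were handled with FastQC, Trimmomatic, HISAT2, Picard and featureCounts (Subread) on GRCm38. Versions, annotation release, strand setting and the treatment of introns are not given in the sources used here. Per the labels, bulk RNA was poly(A)-selected, and sorted RNA was ribosomal-RNA-depleted and made into libraries with a low-input stranded total RNA kit, both read as pairs of 150 bp. The authors deposited whole-number counts per gene, not normalized, with 2 vector entries per table that entered neither library sizes nor tests. Gene positions are from GENCODE M21, which matched 55394 of 55487 gene IDs, and upstream sequences from RefSeq.

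A single fit covered the 35 assigned sorted libraries in 8 groups, sexes weighted equally, and the 8 bulk libraries apart, with edgeR 4.0.16 in R 4.3.3 (quasi-likelihood test, filterByExpr, TMM). Genes were called at a Benjamini-Hochberg adjusted p under 0.05 over all genes tested, and SEs were derived from the log2 change and the F statistic, with 95% intervals of 1.96 SE. CPM were computed with TMM-scaled library sizes, those of the vector entries with library totals. For D2 against D1, members were counted past 2-fold, and their p-values from the fit are not given. A sorted library whose title points to RXRa and whose vector label to EGFP (1 of 36) was not fitted. No 2 replicates of a group agreed within sampling noise (chi-square per degree of freedom from 1.785 to 63.56 over 72 pairs). Scripts were tested on simulated data. Counting floors cover counting error only.

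The 10 genes, the marker lists and the tests were chosen with earlier results of these data known. Named were the 10 members, Drd1, Drd2, other genes within 400 kb past 2-fold, flanking genes, the vector entries and the 3 genes most like each member (not reported here for Ncam1); those at the edge of the window and Higd2a were named after their values were seen. Alternatives were RLE size factors, library totals alone, no filter, DESeq2 1.42.0, a replicate block, the silent-gene density as a covariate, and leaving out each library.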

Additional observations from a re-analysis of the deposited data

Results flagged for a closer look

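In 7 of the 100 combinations of gene and group examined, a library lay far from the others of its group; chance gives about 1 in 20. Of these, 3 rest on a count of 0 or 1 in bulk: E130119H09Rik at 0.0 CPM in bulk RXRa replicate 2 (the others 0.078 to 0.0921), Gm34557 at 0.0 in bulk GFP replicate 2 (0.0353 to 0.0375), and Gm4894 at 0.037 in bulk GFP replicate 3 (the others at 0). Ankk1 was at 8.13 CPM in bulk GFP replicate 4, with the others from 4.63 to 4.88. Gm34557 was at 10.1 CPM in D2 female EGFP replicate 3 (11.8 to 12.1), and Ttc12 at 109 CPM in D2 male EGFP replicate 4 (130 to 136). Ncam1 was at 392 CPM in D1 male EGFP replicate 3, with the others from 304 to 327.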

How the results depend on the processing

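The numbers of members past 2-fold between D2 and D1 nuclei stayed at 7 with EGFP over all 35 leave-one-out fits and at 7 or 8 with RXRa, where Gm4894 lies at the threshold. The counts of 0 in D1 nuclei and in both interactions held in every alternative. In D2 nuclei, the 3 members called became 1 with library totals alone and 0 with the silent-gene density as a covariate, and ran from 0 to 3 over leave-one-out fits. In bulk, the 1 member called became 0 with RLE size factors, library totals alone, no filter on low counts or the replicate block, 2 with DESeq2 (Hrh2 and Ncam1), and 0 in all 8 leave-one-out fits.

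The genes called in D2 nuclei numbered 9683, 6027 with the replicate block, 0 with the covariate and from 0 to 14763 over leave-one-out fits, and in bulk 687, 1598 with DESeq2, 0 with the block and from 9 to 1016. Between D2 and D1 with RXRa, 3677 genes were called, 1119 with library totals alone, 5601 with DESeq2 and 136 with the block. Sfxn1 in D2 nuclei ranged from 0.161 to 0.247 (log2) over leave-one-out fits, and lost its call in 3 of 35, Ankk1 from 0.144 to 0.25 with 18 lost, and Ncam1 from 0.347 to 0.532 with 1 lost (without D2 female RXRa replicate 4). Without the filter on low counts Ankk1 was at 0.21 and no longer called.

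Changes near 0 turned sign: Ankk1 in D1 nuclei (0.07) was at -0.004 with library totals alone, and Ttc12 in bulk (-0.026) at 0.011 there and at 0.005, 0.084, 0.063 and 0.043 without bulk GFP replicate 1 or 2 or bulk RXRa replicate 1 or 3, with -0.156 and 0.084 as the extremes. The cause was not tested. Same-numbered samples did not pair (r of their deviations from -0.887 to 0.833 over 46 sorted pairs, 18 over 0.1, and from -0.654 to 0.632 over 4 bulk pairs, 2 over 0.1). With the replicate block, 2 of the 3 members stayed called in D2 nuclei (Ankk1 and Ncam1), and Sfxn1, at 0.2, did not. The 5 members with at most 9 bulk counts per library could not be tested there.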

Other observations

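The sorted library whose title and vector label disagree entered no comparison. Its ratios to the silent-gene density were 1.59 for Gm18974, 1.38 for E130119H09Rik, 1.45 for Gm34557, 1.49 for Gm48550, 1.45 for Sfxn1 and 1.60 for Hrh2. On the other side they were 2.64 for Gm4894, 7.05 for Ankk1, 5.70 for Ttc12 and 2.29 for Ncam1, with 8.18 for Drd1 and 20.1 for Drd2.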
